A study of Mus musculus with 8 samples.

Results

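Beta-catenin, the TCF/LEF factors it binds on DNA, and a set of their feedback and target genes were examined in mouse dorsal skin during hair regrowth. The 10 genes were chosen by name from the gene table: Ctnnb1, Lef1, Tcf7, Tcf7l1, Tcf7l2, Axin2, Nkd1, Nkd2, Sp5 and Myc. Each was found once, so they make up 10 of the 18770 genes listed, on 9 chromosomes. All 10 passed the filter on low values and were among the 15964 genes tested. The 5 effectors are Ctnnb1 and the 4 TCF/LEF genes, and the other 5 are the feedback and target genes.

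The study asked how alpinetin (AP), a plant flavonoid, acts on skin in a depilation model of hair regeneration. Wildtype C57BL/6 mice (C57BL/6J in the study's methods), labelled as 7 to 8 weeks of age, were depilated on the back and treated topically. The vehicle control (VC) group, 4 samples, received 20 µl of 65% ethanol, and the AP group, 4 samples, received 20 µl of AP at 3 mg/ml in 65% ethanol. Skin was taken 4 days after depilation, and mRNA was sequenced from dermis with hair follicles after interfollicular epidermis had been taken off. Only male mice were used, and depilation itself starts a new hair cycle in both groups, so every comparison is made within induced regrowth.

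Samples carry the names of their columns in the table, from VC.1 and AP.1 up to VC.4 and AP.4, and the values of a group are given in that order. The column numbers differ from those in the sample labels, so no sample was tied to a particular mouse. The study's RNA-seq figure legend gives 4 mice per group. The p-values set the difference between the groups against the spread between these samples. The values are normalized counts, which are reads per gene divided by a size factor for each sample. The VC samples held 6454563 to 7264151 reads on listed genes and the AP samples 8507783 to 11190113. Mitochondrially encoded genes took 42.1% to 54.3% of the reads in VC and 5.32% to 11.1% in AP. Without them, 3080758 to 3762217 reads remained in VC and 7561598 to 10594787 in AP, so the VC values rest on fewer reads.

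In canonical Wnt signaling, Wnt ligands keep beta-catenin from being degraded by the destruction complex, and it enters the nucleus and joins TCF/LEF proteins on DNA to switch on target genes. Several targets, among them Axin2 and the Nkd genes, encode inhibitors of the same pathway and form a negative feedback. In skin, this pathway is needed to form hair follicles and to start their growth phase, and LEF1 is a well known factor of hair shaft precursors and of the dermal papilla, the signaling mesenchyme at the base of the follicle.

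At D4, 2 of the 10 genes were lower in AP and none was higher at a limma adjusted p under 0.05. Nkd1 and Nkd2, both feedback inhibitors, fell to a fold of 0.59 and 0.51. Over all genes tested, 6.33% were called higher and 4.0% lower by the same rule. These are 1011 and 639 genes, and upper-quartile factors in place of the deposited scaling gave 890 and 892. With 1 library left out, the counts ranged from 209 and 94 (without AP.3) to 1082 and 817 (without AP.1). By the thresholds in the study's methods, a fold change over 1.5 with p under 0.01 before adjustment, the same pair passed downwards and none upwards, beside 5.32% and 8.26% of all genes. The 4 AP values lay wholly below the 4 VC values in 2 of the 10 genes and wholly above in none, whereas 8.91% and 10.3% of all genes did so. The median log2 fold change of the 10 genes was -0.29 and that of all genes tested was 0.06. Below 0 lay 7 of the 10 and 46.5% of all genes, and 4 of the 10 had an unadjusted p under 0.05, as had 30.3% of all genes. In bulk samples such as these, fewer cells of a type and less RNA per cell cannot be told apart.

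**Figure D1:**
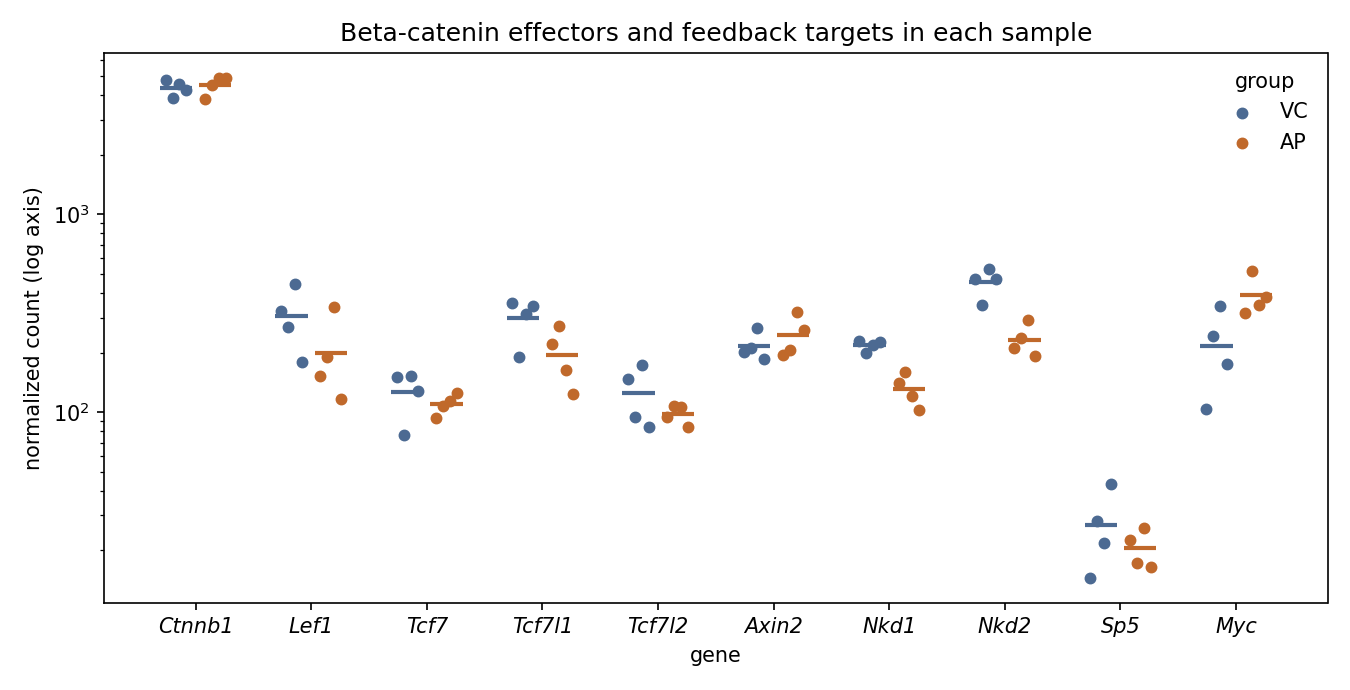
Normalized counts of the 10 genes on a log axis, with a point for each sample, VC in blue and AP in orange, and a horizontal bar at each group mean. The AP points of Nkd1 (102 to 159) and Nkd2 (193 to 290.5) lie below every VC point of the same gene, and the groups overlap for the other 8 genes.

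Ctnnb1 encodes beta-catenin, which carries the signal to the nucleus and also links cadherins to the cytoskeleton at cell junctions. Its normalized counts were 4773, 3858, 4529 and 4256 in VC and 3839.6, 4485, 4886 and 4857 in AP. The groups overlapped, with the lowest value of all in AP.1 and the highest in AP.3. The means were 4354 ± 392 in VC and 4517 ± 487 in AP (SD, n = 4 each). The log2 fold change was 0.05, with a 95% confidence interval of -0.32 to 0.42 and a limma adjusted p of 0.865, and its sign turned under 3 of the 19 alternative settings. In fold terms this interval, with the deposited scaling, runs from 0.80 to 1.34. With scaling to total reads, the log2 fold change was 0.92 (adjusted p = 0.00220, groups without overlap), where the median of all genes was 0.90. Protein, whose stability the pathway controls, was not measured by these values.

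Levels can be compared between genes only after division by transcript length, here the longest annotated transcript of each gene. On this scale Ctnnb1 was far above the rest, at 1202 ± 108 normalized counts per kilobase in VC and 1247 ± 134 in AP. Its lowest sample, at 1059.8 per kilobase, was above the highest value of any other of the 10 genes, Myc in AP.2 at 220.0. Sp5 was lowest, at 12.8 ± 5.78 per kilobase in VC and 9.77 ± 2.13 in AP, and its highest sample, at 20.5, was under the lowest value of the other genes, Tcf7l2 in AP.4 at 22.5. In VC, the genes between these ends were ordered Nkd2 (113 per kilobase), Tcf7l1 (98.6), Myc (92.3), Lef1 (83.5), Nkd1 (53.3), Tcf7 (51.3), Axin2 (50.5) and Tcf7l2 (33.5), and the ranges of neighbours in this order overlapped. In AP, Myc stood first of these at 167 ± 37.3 per kilobase, and its lowest AP sample, at 136, was above every AP sample of the other 7. The rest of the order in AP was Tcf7l1 (63.9 per kilobase), Nkd2 (57.9), Axin2 (57.5), Lef1 (54.5), Tcf7 (44.5), Nkd1 (31.9) and Tcf7l2 (26.4), again with overlapping neighbours. With the median transcript length of each gene, Ctnnb1 was still highest and Sp5 lowest, and the order between them changed. In AP, Tcf7l1 (273 per kilobase) and Axin2 (233) then had higher means than Myc (217).

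The 4 TCF/LEF genes encode DNA-binding proteins that recruit beta-catenin in the presence of Wnt and corepressors in its absence. None of the 4 passed the limma test, and the groups overlapped for each of them. Lef1, mostly an activator and a factor of the hair shaft lineage, measured 326, 270.4, 445 and 180.0 normalized counts in VC and 152, 189.8, 339 and 117 in AP. The AP values were spread through and below the VC values, with AP.3 above VC.1, VC.2 and VC.4, and VC.4 below AP.2 and AP.3. The log2 fold change was -0.65 (SE 0.34, limma adjusted p = 0.217), with a 95% interval of -1.40 to 0.09.

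Lef1 was also among the genes measured by qPCR in the study, with a primer pair that maps to chromosome 3 of mm10. Both primers were found in 5 of the 8 annotated Lef1 transcripts, 4 of them protein-coding, with an amplicon of 87 bases. In transcript Lef1-201, which has 12 exons, the forward primer lies in exon 7 at chr3:131193174-131193197, and the reverse primer crosses the junction of exons 7 and 8 within chr3:131193237-131194633, on the minus strand. All 48 primer bases lie in coding sequence of that transcript, and the 3 transcripts with a retained intron do not hold the pair. The primers are printed because they show which Lef1 transcripts that assay reads, whereas the sequencing counts take in exons of every annotated transcript.
Lef1 forward primer: tggcatccctcatccagctattgt
Lef1 reverse primer: tgaggcttcacgtgcattaggtca

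Tcf7, which encodes TCF1, an activator of Wnt targets best known from T cells, measured 151, 76.8, 152 and 128 in VC and 92.8, 108, 114 and 125 in AP. The lowest value was VC.2, and the 4 AP values lay between it and VC.4. Its log2 fold change was -0.16 (SE 0.26, limma adjusted p = 0.706). Tcf7l1 encodes TCF3, mainly a repressor and a factor of hair follicle stem cells. It measured 357, 189, 311 and 343 in VC and 220.5, 271, 163 and 123 in AP. The values of 3 VC samples were above all 4 AP values, and VC.2 was below AP.1 and AP.2. The log2 fold change of Tcf7l1 was -0.64 (SE 0.28), with an unadjusted limma p of 0.0396 and an adjusted p of 0.144, so it did not pass over all genes. Tcf7l2 encodes TCF4, the main intestinal factor of the family, and ranged from 84.4 to 172 in VC and from 83.7 to 108 in AP. The spread in VC was wider, and the log2 fold change was -0.29 (SE 0.27, limma adjusted p = 0.496).

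Ratios within a sample do not depend on its size factor, so the makeup of the family was also described as the share of each factor in their summed normalized counts per kilobase, with no test. Lef1 took 29.0%, 38.4%, 36.7% and 20.8% in VC and 23.5%, 24.3%, 41.9% and 21.9% in AP. Tcf7l1 took 38.2%, 32.3%, 30.8% and 47.7% in VC and 40.9%, 41.7%, 24.2% and 27.8% in AP. Where Lef1 took more, Tcf7l1 mostly took less, though AP.4 was low for both, and Lef1 had the larger share in VC.2, VC.3 and AP.3. The shares themselves depend on the length used. With median lengths, Tcf7l1 took 51.0% to 75.0% and Lef1 9.92% to 26.7% over the 8 samples, and Tcf7l1 had the larger share in each. The share of Tcf7 was 19.1% ± 2.40 in VC and 24.3% ± 6.99 in AP, where AP.4 stood at 34.8%. The difference between the group means for Tcf7 was 5.24, and 1.75 without AP.4. The share of Tcf7l2 was 12.4% ± 1.93 and 14.1% ± 1.08 (SD, n = 4 each). The log2 ratio of Lef1 over Tcf7l1 per kilobase was -0.27 ± 0.69 in VC and -0.28 ± 0.75 in AP, a difference of -0.01 that was far smaller than the spread within either group. The longest Lef1 transcript used here, 3656 bases, is one with a retained intron, and the longest protein-coding one has 3482.

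**Figure D2:**
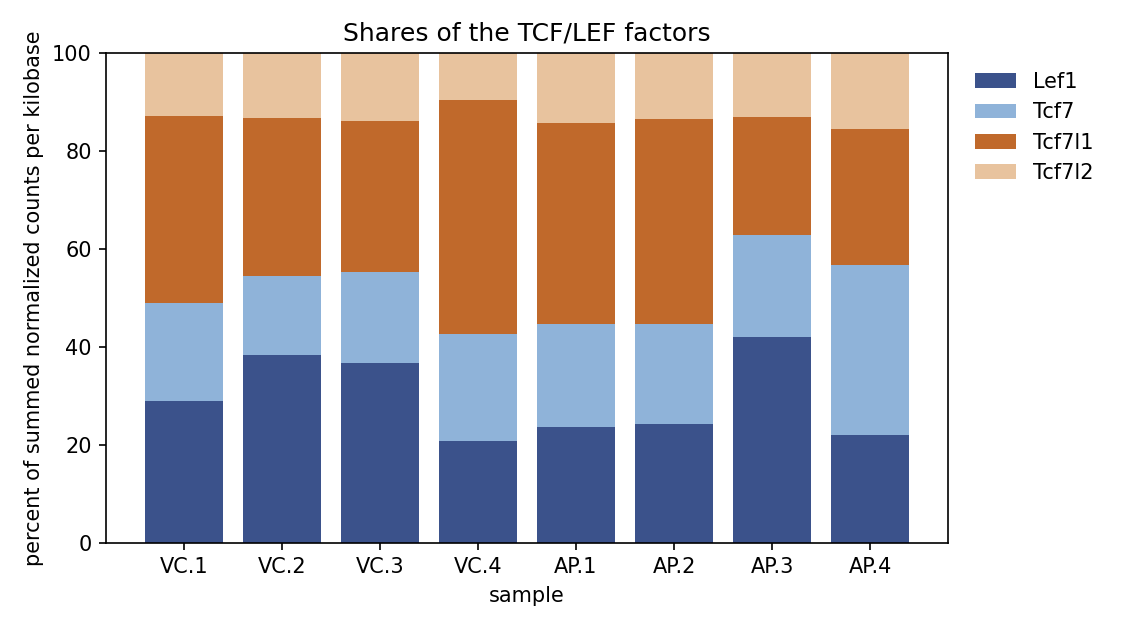
Stacked bars of the share of Lef1, Tcf7, Tcf7l1 and Tcf7l2 in their summed normalized counts per kilobase, in percent, for each of the 8 samples. Lef1 ranges from 20.8% to 38.4% in VC and from 21.9% to 41.9% in AP, so for Lef1 the samples of a group differ more than the group means do.

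Among the feedback genes, Axin2 encodes a scaffold of the destruction complex and is a broadly used readout of the pathway. It measured 200.1, 209.8, 265 and 186 in VC and 194, 205, 319.9 and 261 in AP. AP.1 and AP.2 lay within the VC range, AP.4 was just under the highest VC sample, and AP.3 was above it. The log2 fold change was 0.17 (SE 0.21), with a 95% interval of -0.28 to 0.62 and a limma adjusted p of 0.606. The interval in fold terms, 0.82 to 1.54, holds both a lower level and a rise by the fold of 1.5 used in the study's methods.

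Nkd1 and Nkd2 encode the naked cuticle proteins, which bind Dishevelled and dampen Wnt signaling. Nkd1 measured 227, 198, 217 and 227 in VC and 140.0, 159, 120.1 and 102 in AP. All 4 AP samples were below all 4 VC samples, and the VC samples lay close together, at 217 ± 13.7 against 130.2 ± 24.4 in AP (SD, n = 4 each). The log2 fold change of Nkd1 was -0.75 (SE 0.19, limma adjusted p = 0.0342), and the exact permutation test, two-sided, gave 0.0286, the smallest p possible with 4 samples against 4. Nkd1 lost its call when any of 6 of the 8 samples was left out (VC.1, VC.3, VC.4, AP.2, AP.3 or AP.4), with adjusted p-values of 0.0407 to 0.107 over the 8 fits and log2 fold changes of -0.85 to -0.64.

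Nkd2 measured 473, 349, 527 and 469 in VC and 210.3, 236, 290.5 and 193 in AP. The highest AP sample, AP.3, was below the lowest VC sample, VC.2. The means were 454 ± 75.3 in VC and 233 ± 42.5 in AP, and the log2 fold change was -0.96 (SE 0.19, limma adjusted p = 0.0151, exact permutation p = 0.0286). Without AP.4 its adjusted p was 0.0507, and with any other sample left out it stayed under 0.05. The log2 ratio of Nkd1 over Nkd2 per kilobase was -1.07 ± 0.19 in VC and -0.86 ± 0.33 in AP, so Nkd2 was the more abundant of the pair per length in each group and the difference between the groups was within the spread.

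The fall of both Nkd genes is seen with the deposited scaling, and it is not seen when each sample is scaled to its total reads, where the log2 fold change of Nkd1 was 0.11 and that of Nkd2 -0.10. That scaling counts the mitochondrial reads, and with it the median of all genes stood at 0.90 on the log2 scale. It called 8652 genes higher and 69 lower, against 1011 and 639 with the deposited scaling. Relative to that median, Nkd1 was at -0.788 and Nkd2 at -0.999, beside -0.810 and -1.02 relative to the median with the deposited scaling.

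Sp5, a zinc finger factor that is a direct target and represses other targets, had the fewest reads of the 10 genes, with 8 to 52 reads per sample. It measured 14.6, 28.1, 21.8 and 43.1 in VC and 22.5, 17.3, 25.9 and 16.5 in AP. The VC values spanned all 4 AP values. Its log2 fold change was -0.29, with a limma adjusted p of 0.675 and a 95% interval of -1.23 to 0.64, and this interval holds a fold of 1.5 either way.

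Promoter sequences, 250 bases before to 50 after the start of a gene, were matched by symbol in RefSeq (GRCm38.p6) for 9 of the 10 genes, all but Myc. The 9 genes have 15 such windows. The letters CTTTGAA and CTTTGAT, forms of the TCF/LEF motif that share their first 6 letters, were searched on both strands. They were found in 1 of the 15 windows, that of Sp5, and in 8.65% of all 32851 windows of the same length. The match in Sp5 is CTTTGAT, which begins 104 bases before the start of the gene. The 250 bases before the start are shown for Sp5, with the match in capitals, and for Nkd1 and Nkd2, the pair that fell together, in which neither form was found. They lie at chr2:70474673-70474922 on the plus strand (Sp5), chr8:88527383-88527632 on the plus strand (Nkd1) and chr13:73847632-73847881 on the minus strand (Nkd2), outside the annotated exons of the 3 genes. The Nkd1 window lies inside the annotated gene, which spans chr8:88521354-88594884 and has an earlier start. The windows of Nkd1 and Nkd2 have the same content of G and C, 58.4%, with 6 and 14 CpG sites, and that of Sp5 has 46.0% and 6.
Sp5: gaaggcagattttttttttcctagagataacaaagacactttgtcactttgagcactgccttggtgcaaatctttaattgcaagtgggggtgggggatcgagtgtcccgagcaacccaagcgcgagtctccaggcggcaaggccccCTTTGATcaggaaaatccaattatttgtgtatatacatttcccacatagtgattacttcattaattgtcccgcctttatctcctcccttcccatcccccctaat
Nkd1: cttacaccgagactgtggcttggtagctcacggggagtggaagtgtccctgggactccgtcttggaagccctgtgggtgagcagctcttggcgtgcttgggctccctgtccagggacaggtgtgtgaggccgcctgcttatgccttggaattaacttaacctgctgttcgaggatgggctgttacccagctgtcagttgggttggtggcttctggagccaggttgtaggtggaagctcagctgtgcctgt
Nkd2: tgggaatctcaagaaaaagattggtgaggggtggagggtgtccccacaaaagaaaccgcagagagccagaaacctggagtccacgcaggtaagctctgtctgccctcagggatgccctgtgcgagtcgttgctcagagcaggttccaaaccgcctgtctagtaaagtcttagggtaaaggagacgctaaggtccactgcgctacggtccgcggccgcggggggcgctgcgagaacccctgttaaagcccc

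Myc, a proto-oncogene whose protein drives growth and ribosome production, measured 104, 242, 343 and 174 in VC and 317, 514, 346 and 379.8 in AP. The AP samples were above the VC samples but for AP.1, which was below VC.3. The means were 216 ± 102 in VC and 389 ± 87.2 in AP (SD, n = 4 each). The log2 fold change was 0.95 (SE 0.32), with a 95% interval of 0.26 to 1.65, an unadjusted limma p of 0.0116 and an adjusted p of 0.0730, so Myc did not pass over all genes. The exact permutation test gave 0.0571, two-sided. Without VC.3 the log2 fold change was 1.22 and the adjusted p 0.0354, and over the 8 fits that leave out a sample the adjusted p ranged from 0.0354 to 0.178.

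**Figure D3:**
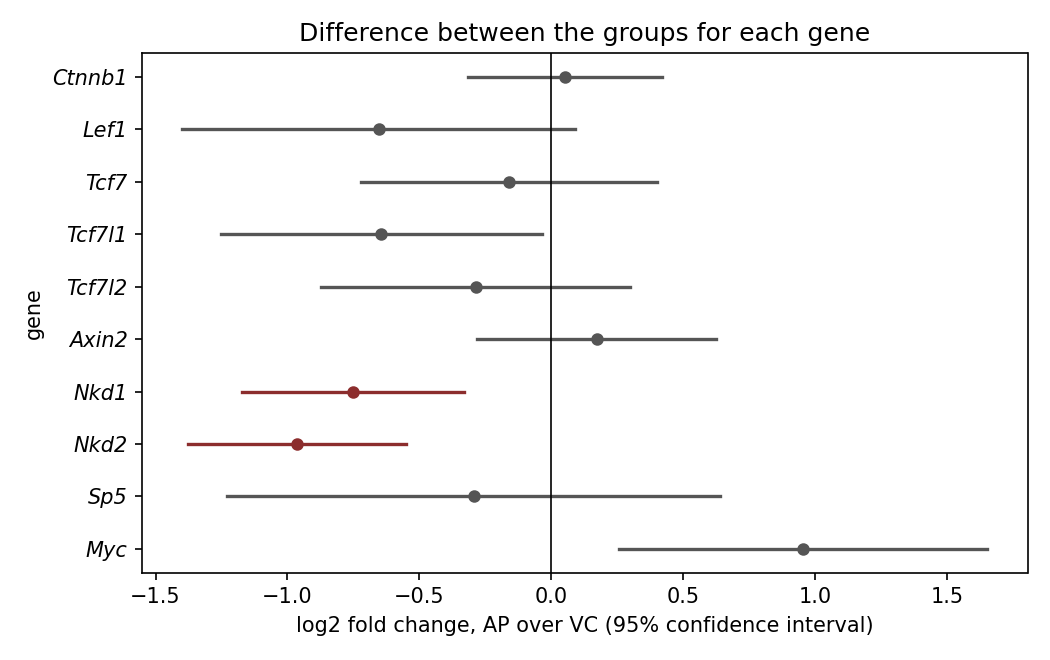
Log2 fold change of AP over VC for each of the 10 genes (points) with its 95% confidence interval from limma (lines), with genes at an adjusted p under 0.05 in red and a vertical line at 0. Nkd1 (-0.75) and Nkd2 (-0.96) are in red, the interval of Myc (0.26 to 1.65) and that of Tcf7l1 (-1.25 to -0.04) leave out 0 without an adjusted p under 0.05, and the other 6 intervals hold 0.

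The genes whose profile over the 8 samples was most like that of 3 of the genes were found by the root mean square (RMS) difference of log2 values, each gene centred on its own mean, among genes with a mean of at least 50 normalized counts. For Lef1 these were Syt4 (RMS 0.214), Vcan (0.214) and Cybrd1 (0.242), where the median over the 11256 genes compared was 0.723. Vcan, a matrix proteoglycan that marks the dermal papilla, was highest in VC.3 (2029) and lowest in AP.4 (487), as Lef1 was. The other 2 shared only one of these extremes with Lef1. Syt4 was highest in VC.3 (116) but lowest in AP.1 (31.9), and Cybrd1 was lowest in AP.4 (47.9) but highest in VC.2 (115). For Axin2 they were Palmd (0.0739), Suco (0.0973) and Pigo (0.105), against a median of 0.455. For Myc they were Edem1 (0.149), Zbtb39 (0.154) and Bcr (0.197), against a median of 0.756, and each of the 3 was lowest in VC.1 and highest in AP.2, like Myc. All these genes were picked by likeness over the same 8 samples, so shared highest and lowest samples are no separate result.

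Further genes of the pathway were taken from lists by role. In these and the marker lists, the top genes named are those with the highest mean normalized count over all 8 samples, not divided by length, which is no comparison of their levels per transcript. Of 17 genes of the destruction complex and its regulators, 1 was higher and none lower at a limma adjusted p under 0.05 (6.33% and 4.0% of all genes), with 4 of the 17 at an unadjusted p under 0.05 (30.3% of all genes) and a median log2 fold change of 0.21. Gsk3b, the kinase that marks beta-catenin for degradation, was at 339 ± 47.4 in VC and 522 ± 76.6 in AP (log2 fold change 0.62, adjusted p = 0.0414). The top 2 members by count were the casein kinases Csnk1a1, at 1744 ± 134 and 2554 ± 516, and Csnk1d, at 841 ± 78.4 and 931 ± 96.2, and neither passed the test.

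Of 21 partners of beta-catenin in the nucleus, 2 were higher and 1 lower (6.33% and 4.0% of all genes), with a median of 0.19 and 7 of the 21 at an unadjusted p under 0.05 (30.3% of all genes). The coactivators Bcl9l, which ties beta-catenin to Pygopus, and Ep300, a histone acetyltransferase, rose by log2 fold changes of 1.02 and 1.07 (limma adjusted p = 0.0230 and 0.0198). Bcl9l measured 223 to 469 in VC and 574 to 795 in AP, and Ep300 measured 163 to 300.1 and 357 to 632. Tle5, a short Groucho family protein that lacks the repressor domains of its relatives, fell with a log2 fold change of -0.87 (adjusted p = 0.0235), from 3030.4 ± 546 in VC to 1669 ± 364 in AP. It had the highest count of the list. The corepressor Ctbp1, second by count, was at 1558 ± 91.3 and 1162 ± 45.6, with groups that did not overlap and an adjusted p of 0.0582.

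Of 21 other target genes tested, none was higher and 1 lower (6.33% and 4.0% of all genes), with a median of 0.11 and 7 of the 21 at an unadjusted p under 0.05 (30.3% of all genes). Wif1, a secreted inhibitor that binds Wnt ligands, fell with a log2 fold change of -1.24 (limma adjusted p = 0.0282). It measured 317, 464, 519 and 418 in VC and 143, 166, 346 and 122 in AP, so AP.3 was above VC.1. The top 2 members by count over both groups were Ccnd2, a G1 cyclin, at 1649 ± 348 and 1754 ± 244, and Trp63, the epidermal lineage factor, at 911 ± 290.4 and 1579.5 ± 618, and neither passed the test.

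Of 10 partners and antagonists of Myc, 1 was higher and 1 lower (6.33% and 4.0% of all genes), with a median of 0.03 and 5 of the 10 at an unadjusted p under 0.05 (30.3% of all genes). Mxd3, which competes with Myc for its partner Max, fell with a log2 fold change of -1.03 (limma adjusted p = 0.00911) from 623 ± 119 in VC to 301 ± 35.1 in AP, and no AP sample reached the VC range. Mga, another Max partner, rose by 0.68 (adjusted p = 0.0305), from 197 ± 25.8 to 315 ± 31.9. Mxd4, with the highest count, was at 1727 ± 457 and 1341 ± 195 and did not pass. Of 15 Myc targets of ribosome production and metabolism, 1 was higher and 1 lower, with a median of -0.09 and 6 of the 15 at an unadjusted p under 0.05, beside the same shares of all genes. Nop56, a nucleolar protein, fell with a log2 fold change of -0.76 (adjusted p = 0.0257), and Cad, an enzyme of pyrimidine synthesis, rose by 0.69 (adjusted p = 0.0403). The top 2 of these targets by count over both groups were Ldha, at 4195 ± 796 and 4377 ± 696, and Npm1, at 4475 ± 1027 and 2752 ± 564, which did not pass with an adjusted p of 0.0531.

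Of 8 genes of the cadherin junction, where beta-catenin has its second role, 3 were higher and none lower (6.33% and 4.0% of all genes), with a median of 0.31 and 4 of the 8 at an unadjusted p under 0.05 (30.3% of all genes). Vcl, which links the junction to actin, rose by a log2 fold change of 1.52, Jup, the close relative of beta-catenin in desmosomes, by 1.44 and Cdh1, the epithelial cadherin, by 1.20 (limma adjusted p = 0.00645, 0.0193 and 0.0211). Jup measured 1453, 1961, 1648 and 1013 in VC and 2439.8, 3108, 5576 and 6167 in AP, so AP.3 and AP.4 were highest. Ctnna1, alpha-catenin, was at 1382 ± 99.95 and 1776 ± 178, with groups that did not overlap and an adjusted p of 0.117.

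Markers of cell types were read to check the tissue against its description, a dermis without interfollicular epidermis. Counts of marker genes that passed stand beside 6.33% of all genes called higher and 4.0% called lower. Fibroblast genes were at summed levels of 76169 to 214350.0 normalized counts in VC and 94665 to 248493 in AP, with the highest count for Col1a1, and 0 of 6 passed the limma test. Genes of suprabasal epidermis were nevertheless present in every sample, and 6 of 7 were higher in AP. Their summed level was 5199, 11442, 7693 and 5072 in VC and 40169, 38026, 112264 and 159782 in AP, with the highest count for Krt10 (2376 ± 1207 in VC and 38536 ± 27358 in AP). Of 5 basal keratinocyte genes, 3 were higher, and their sum was 23048, 76900.1, 45841 and 21375 in VC and 47897, 51509, 92112 and 136014 in AP, with the highest count for Krt14. AP.3 and AP.4 were thus the samples with most keratinocyte RNA, and also those with the highest Jup. The part of these markers in the results for the junction genes and for the 10 genes was not tested.

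Of 8 dermal papilla genes, 3 were lower (Sox2, Rspo3 and Crabp1) and none higher (4.0% and 6.33% of all genes), with a median log2 fold change of -0.92. Their summed level was 2650.4, 3111, 4357 and 3984 in VC and 1503, 1595, 2441 and 1306 in AP. Crabp1 was at 2254 in VC.4 and at 471 to 602 in the other VC samples, and Vcan had the highest count. Of 5 melanocyte genes 3 were lower (Pmel, Tyr and Mlana) and none higher, with sums of 4222, 3189, 3763 and 1313 in VC and 1212, 1463, 1943 and 1111 in AP, with the highest count for Dct. The 7 genes of hair matrix and hair shaft precursors had sums of 3551, 2332, 3545 and 838 in VC and 1015, 2158, 2591 and 1261 in AP, with the highest count for Krt35, and 0 of 7 passed. VC.4, lowest of the VC samples for Lef1, was also lowest of them for this list and for the melanocyte list. The part of these markers in the results for Nkd1, Nkd2, Wif1 and Lef1 was not tested.

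Of the other lists, 2 of 4 endothelial genes were higher (6.33% of all genes), with sums of 502 to 1065 in VC and 1580.4 to 4567 in AP, with the highest count for Pecam1. The 5 skeletal muscle genes, with the highest count for Acta1, summed to 27509.8 to 55826 in VC, to 49602 in AP.1 and to 4318 to 9559 in the other AP samples. All 5 had a log2 fold change below 0 (46.5% of all genes), with a median of -1.74, and 4 had an unadjusted p under 0.05 (30.3%). Of the 5, 2 passed the thresholds in the study's methods downwards (5.32% of all genes), and 0 passed the limma test. Among T cell genes, 1 of 12 was higher (Trdc), beside 6.33% of all genes, with a median log2 fold change of 0.74. Of the 12, 8 were above 0 (53.5% of all genes) and 5 had an unadjusted p under 0.05 (30.3%). In 3 of them AP lay wholly above VC (Cd3d, Cd247 and Trdc), as in 10.3% of all genes. Sums of the T cell list, 1504 to 1846 and 1410.5 to 1879.9, are mostly Thy1 (1365 ± 159 and 1265 ± 198), which other skin cells also express. Cd3d, Cd8a and Trac were at 0 reads in at least 1 sample. Sums of leukocyte genes, with the highest count for Cd74, were 8261 to 28386 in VC and 8578 to 13955 in AP. Those of hair follicle stem cell genes, with the highest count for Krt15, were 5466 to 7712 and 4881 to 10218, and those of adipocyte genes, with the highest count for Fabp4, were 9068 to 24859 and 8328 to 21839, and no gene of these 3 lists passed. All 7 leukocyte genes had a log2 fold change below 0 (median -0.50), as had 46.5% of all genes. Of these 7, 3 had an unadjusted p under 0.05 (30.3% of all genes). No gene of any marker list was at 0 in a whole group. Of 12 mitochondrially encoded genes tested 10 were lower in AP (4.0% of all genes), and mt-Co1, with the highest count, did not pass. In all 12, mt-Co1 among them, AP lay wholly below VC (8.91% of all genes), with a median log2 fold change of -3.38. The part of these lists in the results was not tested.

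Some reads may belong to neighbours. It is not stated whether strand was used in counting, and 4 of the 10 genes share exonic bases with a listed gene on the opposite strand. These are Ctnnb1 with Ulk4 (759 of 5192 bases), Lef1 with Lef1os1 (1208 of 8788), Tcf7l1 with Gm15401 (179 of 3924) and Axin2 with Gm11670 (209 of 5506). Without strand, reads of a gene and its antisense partner cannot be told apart. Lef1os1 was at 18.8 to 143 normalized counts and Ulk4 at 1463 to 2485, so the values of Lef1 and Ctnnb1 are uncertain by what the shared bases add or remove. Nkd1 and Nkd2 share no exonic bases with a listed gene.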

How the data were processed

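Messenger RNA was measured in 4 VC and 4 AP samples. The authors used STAR for alignment to mm10 and, by their methods, featureCounts for counting. The submitters' processing notes name HTSeq instead. The deposited signal values are read counts of each gene after division by DESeq2 size factors, 1 for each library. The table also holds the authors' own DESeq2 comparison (fold changes, test statistics and p-values), which was not used. All 150160 of 150160 values were whole multiples of a step per library within 0.01 read, so reads were recovered.

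Groups were compared with limma 3.58.1 (R 4.3.3) on log2(normalized count + 1), using moderated variances that follow an intensity trend. This scale understates changes of low genes. A gene was tested if 4 or more of the 8 libraries had 3 or more normalized counts, with Benjamini-Hochberg adjustment over all 15964. Single genes also had a two-sided exact permutation test over 70 assignments. On the recovered reads, edgeR 4.0.16 (quasi-likelihood) called 1003 genes higher and 712 lower, and DESeq2 1.42.0 called 1667 and 1394 of 18714 genes, without that filter. Other alternatives were limma-voom, pseudocounts, filters, scalings, removal of a trend on transcript length and each library left out. The steps were tested on simulated data.

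Transcripts and exons came from GENCODE M21 and were read with Python 3.11.15 and pandas 2.3.3. The primers came from the study's supplementary methods. The genes named were the 10 genes, the changed members of each pathway list (at most 4) and its 2 with the highest mean normalized count over the 8 samples, the gene highest by that measure in each marker list, and the 3 genes most like Lef1, Axin2 and Myc. Changed marker genes, the 2 TCF/LEF motif forms and the promoters shown were chosen after values were seen. The 10 genes and the lists were chosen with earlier results of these data known.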

Additional observations from a re-analysis of the deposited data

Results flagged for a closer look

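Among the 32 sets of 4 samples examined, for the 10 genes, the 4 TCF/LEF shares and the 2 ratios, 2 held a sample far from the other 3, with a gap of over 0.829 of the whole range. Chance alone gives about 1 in 20. The share of Lef1 in the TCF/LEF factors per kilobase was 41.9% in AP.3, against 21.9% to 24.3% in the other AP samples, a gap of 0.881 of the range. The share of Tcf7 was 34.8% in AP.4, against 20.4% to 21.2%, a gap of 0.945 of the range. With median transcript lengths, the share of Tcf7 was 19.2% in AP.4, against 9.39% to 12.1%, and this gap did not pass the limit. The gap of Lef1 did. Shares within a sample depend on each other, and the Tcf7 counts themselves, 92.8 to 125 in AP, hold no such sample.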

How the results depend on the processing

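No paired analysis was possible because the groups share no replicate number in the labels. Scaling to total reads changed most. It called 3 of the 10 genes higher (Ctnnb1, Axin2 and Myc) and 0 lower, beside 54.2% and 0.43% of all genes, whose median moved to 0.90. By the thresholds in the study's methods, 3 of the 10 passed upwards and 0 downwards. The share of all genes past them was not computed with this scaling, where the median of all genes, 0.90, itself exceeds their fold. The log2 fold changes of Lef1 (0.21), Tcf7 (0.70), Tcf7l1 (0.22), Tcf7l2 (0.58), Nkd1 (0.11) and Sp5 (0.54) turned positive. Totals without mitochondrially encoded genes turned none of the 10 genes. Ctnnb1 turned to -0.011 with upper-quartile factors and -0.043 with the transcript length trend removed, and ranged from -0.0059 (without VC.2) to 0.127 with 1 library left out. For Ctnnb1 the cause was not tested. With that trend removed, 1 of the 10 genes passed the thresholds of the methods upwards, and the share of all genes past them was not computed.

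With 1 library left out, members called higher numbered 0 to 1 and members called lower 0 to 2. Those past the thresholds of the methods numbered 0 to 1 upwards and 2 to 3 downwards, and those with groups that do not overlap 2 to 4. Shares of all genes by these last 2 rules were not computed for these fits. Groups with a library fewer also separate more easily by chance, so the shares with all 8 samples are no measure for them. Over 19 alternatives, Nkd2 was called in 17 and Nkd1 in 12, and of the 11 that leave out no library, both were called in 10, all but scaling to total reads. Myc was called in 2, Ctnnb1 and Axin2 in 1 each, and the other 5 genes in none. The differences in TCF/LEF shares and ratios moved by less than their SD pooled over both groups under each alternative run, the most in SD units for Tcf7, from 5.24 to 1.75 without AP.4 (pooled SD 5.23). Over all genes, 1011 were called higher and 639 lower, against 1667 and 1394 with DESeq2 on 18714 genes, so both test and gene set differ, 580 and 531 with the length trend removed, 8652 and 69 with total reads, and from 209 and 94 (without AP.3) to 1082 and 817 (without AP.1) with a library left out. Sp5 had the fewest reads, 8 to 52 per sample, and mitochondrial reads leave fewer others in VC.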
